A study of Rattus norvegicus with 8 samples.

Results

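Kinesins are motor proteins that walk along microtubules, and the 25 kinesin genes described here are those that a rat expression array measured in the kidney left behind after removal of the other kidney. They were taken as every gene whose symbol is Kif followed by a number, with or without a letter and a further digit, among the 14400 genes that the array's probes could be named to through their RefSeq accessions. These 25 genes were covered by 38 of the array's 41012 probes. By known role, 9 were placed with the mitotic kinesins, 10 with the kinesins of cargo transport and 6 with the rest, which act in cilia, in Hedgehog signalling or at microtubule ends, or have no settled cargo. Of the 25, 20 genes were tested because 4 or more of the 8 arrays showed a probe of theirs well above background: 7 mitotic, 8 transport and 5 others.

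Total RNA came from the right kidney of 10-week-old female rats of the inbred strain F344/NSlc, 4 sham-operated and 4 with a unilateral nephrectomy, and each RNA was run on 1 single-colour Agilent array. No label says that the samples of a group were separate animals, and the p-values therefore reflect only how these samples varied. The sources differ on the time of sampling: the series text gives 2 days after surgery for both groups, while the sample names give 1 day for the sham group and 2 days for the nephrectomized group. Under the sample names, the day of sampling and the surgery cannot be told apart.

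Every kinesin shares a motor domain that splits ATP, but the family has divided its work. In a dividing cell, mitotic kinesins push the spindle poles apart, hold chromosomes at the equator and build the midzone where the cell is later cut, and their transcripts are known to be made mainly late in the cell cycle. Transport kinesins carry vesicles, organelles and protein complexes along microtubules in cells whether or not they divide, and a kinesin of the transport class also builds the primary cilium of the kidney tubule.

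Mitotic kinesin genes are among those whose promoters are known for a short element of late cell-cycle genes, the cell cycle genes homology region, with the letters TTTGAA or TTTAAA, often next to a CCAAT box. Windows from 250 bases before to 50 bases after the transcription start, from RefSeq on the GRCr8 assembly, were found for 21 of the 25 genes and searched on both strands. Either TTTGAA or TTTAAA stood in the windows of 7 of 8 mitotic kinesins, 0 of 9 transport kinesins and 1 of 4 others, Kif26b, against 29.6% of all 27457 genes with a window. CCAAT stood in 5 of 8 mitotic, 3 of 9 transport and 1 of 4 other kinesins, against 39.6% of all genes. The mitotic kinesin without either hexamer was Kif18a. Its window held TTTGGCGC, the letters of an E2F site, on the opposite strand from base -10 to base -3 before the start, which 152 of all genes with a window held, or 0.554%. That motif was searched for only after the Kif18a window had been read. The median GC content was 59.7% in the mitotic windows and 62.0% in the transport windows, against 51.7% over all windows. These letters are a description of the windows and not evidence of binding. The 200 bases before the start are printed 5′ to 3′ in the gene's own direction, with matches in capitals, which read as the reverse complement where a motif lies on the opposite strand. Kif18a and Kif22 are shown as the kinesins that passed the test below, Kif20b and Kif11 as mitotic kinesins with large and small differences, and Kif5b and Kif1c as transport kinesins.
Kif18a promoter, chr3:116218807-116219006, plus strand: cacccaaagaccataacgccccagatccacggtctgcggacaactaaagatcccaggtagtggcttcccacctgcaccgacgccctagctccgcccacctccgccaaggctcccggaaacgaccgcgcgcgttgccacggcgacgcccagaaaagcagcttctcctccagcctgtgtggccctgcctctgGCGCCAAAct
Kif22 promoter, chr1:191080879-191081078, minus strand: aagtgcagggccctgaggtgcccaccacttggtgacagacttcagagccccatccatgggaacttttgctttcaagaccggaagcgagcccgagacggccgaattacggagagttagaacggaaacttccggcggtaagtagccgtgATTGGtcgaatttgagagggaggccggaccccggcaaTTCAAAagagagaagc
Kif20b promoter, chr1:241840816-241841015, plus strand: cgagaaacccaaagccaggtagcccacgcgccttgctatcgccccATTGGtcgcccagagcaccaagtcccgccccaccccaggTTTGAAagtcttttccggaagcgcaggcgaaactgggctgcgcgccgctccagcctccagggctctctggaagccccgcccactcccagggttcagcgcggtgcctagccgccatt
Kif11 promoter, chr1:244536667-244536866, plus strand: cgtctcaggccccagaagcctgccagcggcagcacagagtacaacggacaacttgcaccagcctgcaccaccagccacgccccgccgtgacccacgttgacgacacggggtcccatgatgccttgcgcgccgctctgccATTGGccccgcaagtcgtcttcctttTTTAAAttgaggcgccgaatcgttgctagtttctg
Kif5b promoter, chr17:56185186-56185385, plus strand: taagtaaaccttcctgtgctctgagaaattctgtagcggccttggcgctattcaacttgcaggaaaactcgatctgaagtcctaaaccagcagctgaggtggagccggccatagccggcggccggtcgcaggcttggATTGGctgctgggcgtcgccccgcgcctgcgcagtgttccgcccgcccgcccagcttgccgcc
Kif1c promoter, chr10:55912893-55913092, plus strand: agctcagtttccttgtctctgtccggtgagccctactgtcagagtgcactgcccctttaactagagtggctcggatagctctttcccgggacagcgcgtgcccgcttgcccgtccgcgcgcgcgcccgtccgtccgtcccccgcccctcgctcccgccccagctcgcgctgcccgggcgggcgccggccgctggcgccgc
The capitals in Kif18a are the E2F letters. In Kif22, Kif20b and Kif11 the capitals are a CCAAT box on the opposite strand followed by TTTGAA or TTTAAA, and in Kif5b they are a CCAAT box alone. The printed stretch of Kif1c held none of the 4 motifs.

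The arrays were alike as a whole. Their 75th percentile signals ran from 388 to 643, between 59.4% and 66.0% of probes were well above background, no probe was saturated, and correlations between arrays lay between 0.986 and 0.993. The arrays sat on 2 slides, each with 2 sham and 2 nephrectomized arrays and its own scan: replicates 1 and 2 of both groups on slide 1, and replicates 3 and 4 on slide 2. On each slide the sham arrays held the first positions, so position and group cannot be told apart. The nephron markers Umod and Slc34a1 and the podocyte marker Nphs1 were well above background on all 8 arrays. Over all 21831 features, limma with Benjamini-Hochberg adjustment called 152 higher and 60 lower after nephrectomy at a threshold of 0.05, and the median log2 difference was 0.01.

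Kif18a and Kif22, both mitotic kinesins, rose after nephrectomy, and no transport kinesin was called in either direction. Of the 7 mitotic kinesins tested, 2 rose past the threshold, against 0.696% of all features called higher and 0.971% called in either direction. All 7 had a positive log2 difference, with a median of 1.16 and a range from 0.10 to 2.13, beside the median of 0.01 over all features. In 6 of the 7, all except Kif11, every nephrectomized array lay above every sham array, against 6.97% of all features. The same 6 had an unadjusted p under 0.05, as did 3457 of all 21831 features. Of the 8 transport kinesins tested, 0 passed the threshold, 1 had an unadjusted p under 0.05, and the median log2 difference was 0.05 with a range from -0.28 to 0.17. In whole tissue a larger number of cells with a transcript cannot be told apart from more of that transcript in each cell.

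**Figure D1:**
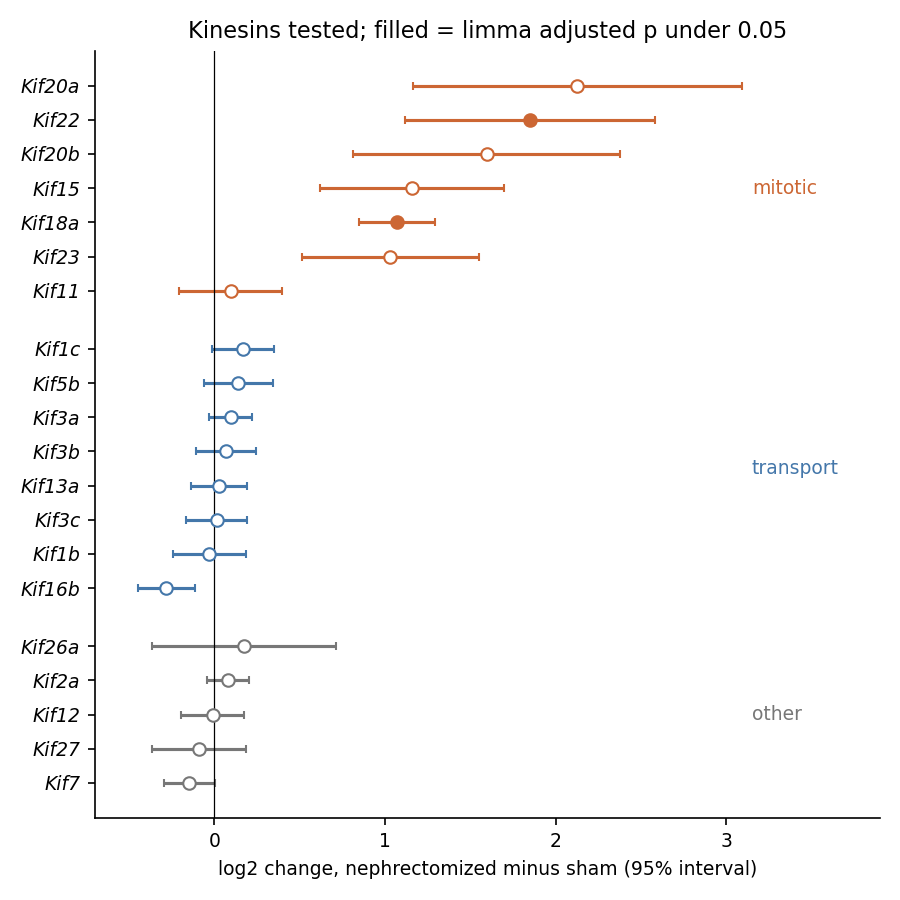
Log2 difference, nephrectomized minus sham, of the 20 kinesins tested, with its 95% interval from limma (4 arrays a group); filled points have a Benjamini-Hochberg adjusted p under 0.05 over all features. The 6 mitotic kinesins other than Kif11 lie at 1.03 or above, and the 8 transport and 5 other kinesins lie between -0.28 and 0.17.

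The 95% intervals of single mitotic and transport kinesins were set side by side. Among the 6 mitotic kinesins other than Kif11, the lower ends of the intervals ran from 0.51 for Kif23 to 1.16 for Kif20a. The highest upper end among the 8 transport kinesins was 0.35, that of Kif1c. The interval of Kif11, from -0.20 to 0.40, lay across those of the transport kinesins. These intervals are per gene and not widened for the number of genes, and no test of the mitotic against the transport kinesins as sets was made.

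Kif18a, a motor that gathers at the plus ends of kinetochore microtubules and damps the movements of aligned chromosomes, had the clearest difference. Relative signals, which are processed signals divided by the 75th percentile of the same array, were 0.0740, 0.0755, 0.0939 and 0.0759 in sham replicates 1 to 4. The nephrectomized replicates had 0.177, 0.151, 0.161 and 0.181. The groups did not overlap, and the lowest nephrectomized array stood clear of the highest sham array, replicate 3. On the log2 scale the group means were -3.65 ± 0.16 and -2.58 ± 0.12 (SD, n = 4 each), a difference of 1.07 ± 0.10 (SE), or 2.10-fold, higher in 4 of 4 nephrectomized arrays, with an adjusted p of 0.00983 by limma. Among all features Kif18a ranked 4th by p. It was the only mitotic kinesin whose SD was not larger in the nephrectomized group. The call held with the slide as a block (adjusted p = 0.00818) and with any 1 of the 8 arrays left out (0.0105 to 0.0471), and the log2 difference was 1.13 on slide 1 and 1.01 on slide 2. It was lost on each slide alone, with 2 arrays a group (adjusted p = 0.448 and 0.435), where no feature was called. Another background correction of the raw spots, normexp, gave a smaller log2 difference of 0.57 with an adjusted p of 0.00880.

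Kif22, a chromokinesin that binds DNA and pushes chromosome arms towards the spindle equator, rose with a larger difference and a wider spread. Sham relative signals were 0.144, 0.135, 0.198 and 0.168, and those after nephrectomy were 0.322, 0.740, 0.466 and 0.980. Nephrectomized replicates 2 and 4 were the highest and replicate 1 was the lowest of its group, though above every sham array. The log2 means were -2.65 ± 0.24 and -0.80 ± 0.71 (SD, n = 4 each), and the difference was 1.85 ± 0.32 (SE), or 3.61-fold, higher in 4 of 4 nephrectomized arrays, with a limma adjusted p of 0.0450. The difference was alike on the slides, 1.81 and 1.89, but with the slide as a block the adjusted p was 0.0558, and on each slide alone it was 0.511 and 0.486. Without nephrectomized replicate 1 the adjusted p was 0.0139, and without any 1 of the other 7 arrays Kif22 was not called (0.0846 to 0.129).

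Kif20a, Kif20b and Kif23 work late in division, at the midzone and in the cut between daughter cells, and none of them passed the threshold. Kif20a brings the chromosomal passenger complex to the midzone, and its relative signals were 0.256, 0.264, 0.382 and 0.356 in sham kidneys and 0.583, 1.72, 1.20 and 2.77 after nephrectomy. Its log2 difference of 2.13 ± 0.42 (SE), 4.37-fold, was the largest among the kinesins tested, was positive in 4 of 4 nephrectomized arrays against the whole sham group, and had a limma adjusted p of 0.0584. The nephrectomized arrays spread widely, with replicate 4 at the top and replicate 1 at the bottom, and still did not reach down to the sham arrays.

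Kif20b, which acts in the completion of cytokinesis, stood at 0.107, 0.128, 0.154 and 0.169 in the sham arrays and at 0.211, 0.589, 0.366 and 0.656 in the nephrectomized arrays. The log2 difference was 1.60 ± 0.34 (SE), 3.02-fold, with a limma adjusted p of 0.0701. Its groups were separate, with sham replicate 4 and nephrectomized replicate 1 the nearest pair. Kif23, the motor subunit of centralspindlin, had sham values of 0.173, 0.129, 0.172 and 0.150 and nephrectomized values of 0.218, 0.344, 0.278 and 0.483, a log2 difference of 1.03 ± 0.23 (SE), 2.04-fold, and a limma adjusted p of 0.0753. Here too every nephrectomized array was above every sham array, and replicate 1 was the closest to them.

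Kif15 and Kif11 both act on the spindle's bipolar shape, and neither passed the threshold. Kif15, which helps to keep the poles apart once they have separated, had relative signals of 0.0611, 0.101, 0.112 and 0.0850 in sham arrays and 0.162, 0.206, 0.157 and 0.281 in nephrectomized arrays. The groups did not overlap, and sham replicate 1 and nephrectomized replicate 4 were the extremes. Its log2 difference was 1.16 ± 0.24 (SE), 2.23-fold, with a limma adjusted p of 0.0620.

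Kif11 crosslinks antiparallel microtubules and slides the poles apart, and its probe used here gave 0.962, 0.808, 0.842 and 0.711 in sham arrays and 0.748, 0.908, 0.823 and 1.09 in nephrectomized arrays. The groups overlapped widely: sham replicate 1 was above 3 of the nephrectomized arrays. The log2 difference was 0.10 ± 0.13 (SE), with a 95% interval from -0.20 to 0.40 and a limma adjusted p of 0.771. The upper end of that interval lay below the lower ends of the other 6 mitotic kinesins. On slide 1 the difference was -0.10 and on slide 2 it was 0.29.

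**Figure D2:**
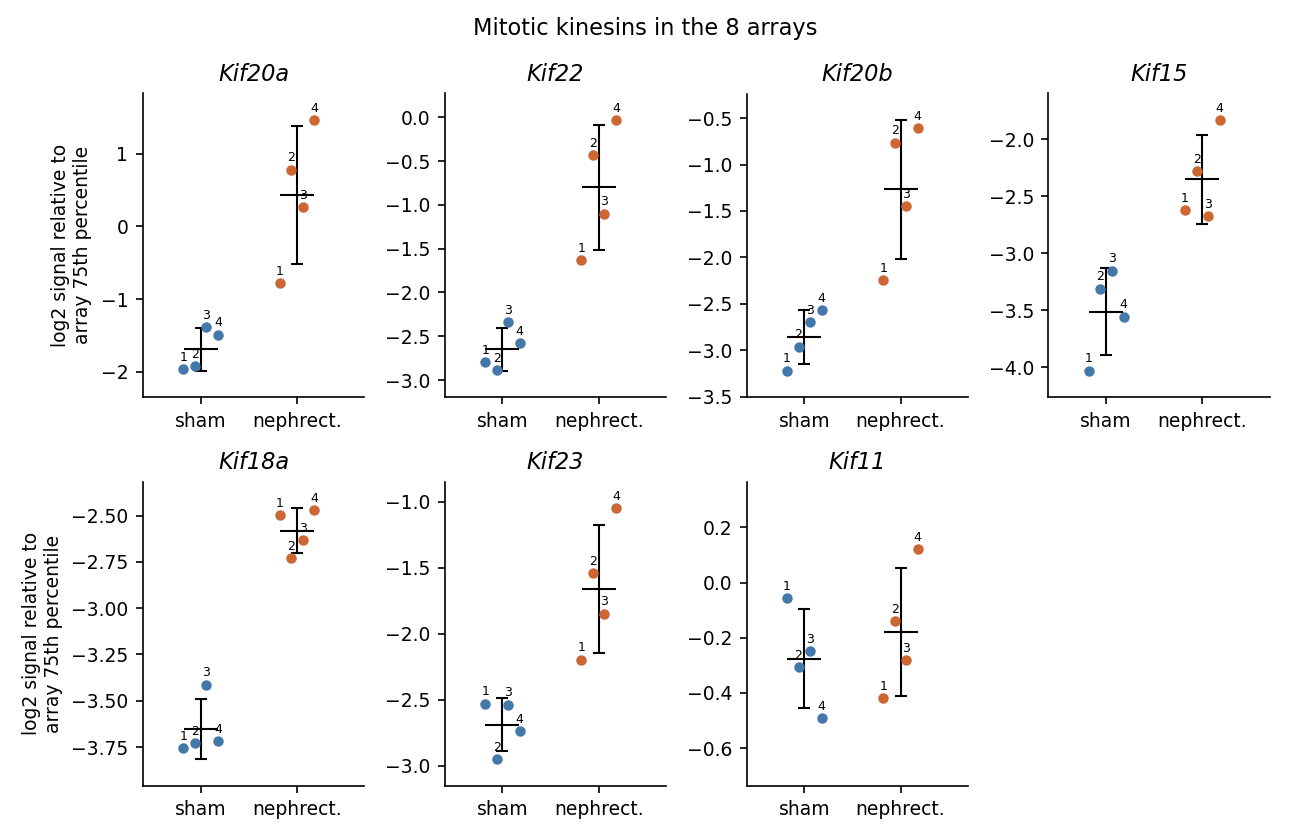
Log2 signal relative to the 75th percentile of the same array for the 7 mitotic kinesins tested, 1 point an array with its replicate number, and the mean ± SD of each group (n = 4); each gene has its own vertical axis. In 6 genes every nephrectomized point is above every sham point, and nephrectomized replicate 4 is the highest of its group in all 7.

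The mitotic kinesins shared an order among the nephrectomized arrays. Replicate 4 was the highest of its group for 7 of 7 genes, and replicate 1 was the lowest for 5 of 7, all but Kif15 and Kif18a. How often other features had the same order was not counted, so it cannot be called particular to these genes. The SD was larger after nephrectomy than after sham surgery in 6 of the 7. Replicate 4 also had the largest share of probes well above background, 66.0%, and the lowest 75th percentile signal, 388, while replicate 1 had the smallest share, 59.4%. Their part in the result was not tested. The count of mitotic kinesins called moved with the arrays used: without replicate 1, 5 of 7 passed the threshold, with Kif20a at an adjusted p of 0.0128, Kif20b at 0.0153 and Kif23 at 0.0438 by limma. Without any 1 of the other 7 arrays, 1 of 7 passed. With replicate 1 kept, 5 passed with trended and robust variances, 5 with probes required on all arrays and 4 with normexp. With normexp and its added offset the differences were also smaller, 1.27 for Kif22, 1.80 for Kif20a, 1.15 for Kif20b, 0.69 for Kif15 and 0.74 for Kif23. The mitotic median was then 0.74. The 6 genes other than Kif11 stayed positive under all 21 alternatives tried, each slide alone included. Because their groups did not overlap, leaving out 1 array or reading a slide alone could not have changed that sign. The blocks, probe filters and variance settings left the differences themselves unchanged, so these alternatives say little about direction.

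**Figure D3:**
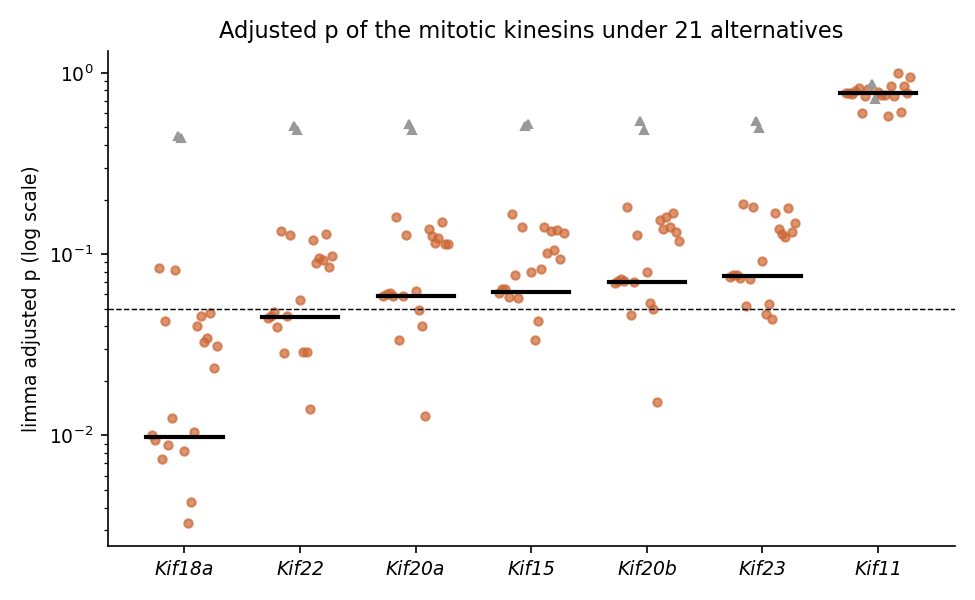
Benjamini-Hochberg adjusted p from limma (log axis) of the 7 mitotic kinesins: black bars are the reported values, orange points the alternatives that use both slides, grey triangles each slide alone, and the dashed line is the threshold of 0.05. Kif18a lies below the line in 17 of 21 alternatives and Kif22 in 9, while Kif11 lies above it in all.

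Second probes bear on Kif18a and Kif11. The other Kif18a probe was well above background on 1 sham array and all 4 nephrectomized arrays, and its log2 difference of 1.66 had an adjusted p of 0.252 when every probe was tested. That sham array was replicate 2, at 0.0834, within the nephrectomized range of 0.0535 to 0.0969. The other 3 sham arrays, where the probe was not well above background, read 0.0102 to 0.0213. With the mean of both probes in place of the brighter one, Kif18a had a log2 difference of 1.37 and was no longer called (adjusted p = 0.0842). The other Kif11 probe was not well above background on any sham array and was so on nephrectomized replicates 2 and 4. Its relative signals were 0.0445, 0.0394, 0.0449 and 0.0201 in sham arrays and 0.0458, 0.0683, 0.0450 and 0.101 after nephrectomy. The measured log2 difference was 0.79, and the groups only just did not overlap, at 0.0449 against 0.0450. Whether both Kif11 probes read the same transcripts was not tested. The dim probe could not be tested for a difference, and was 1.32-fold higher against the background floor of the arrays. That floor takes, in each sham array, the lowest signal of any probe well above background where the probe itself is dimmer. The fold is no lower bound, because nephrectomized replicates 1 and 3 were not well above background either.

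Both mitotic kinesins that could not be tested are microtubule depolymerisers. Kif2c, which corrects faulty attachments at centromeres, was not well above background on any sham array, where it read between 0.00941 and 0.0103. After nephrectomy it read 0.0175, 0.0586, 0.0223 and 0.0754, and replicates 2 and 4, which were also the highest arrays for Kif20a, Kif20b and Kif22, were well above background. No fold is given, because the nephrectomized mean was itself below the floor. Kif2b was not well above background on any of the 8 arrays.

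**Figure D4:**
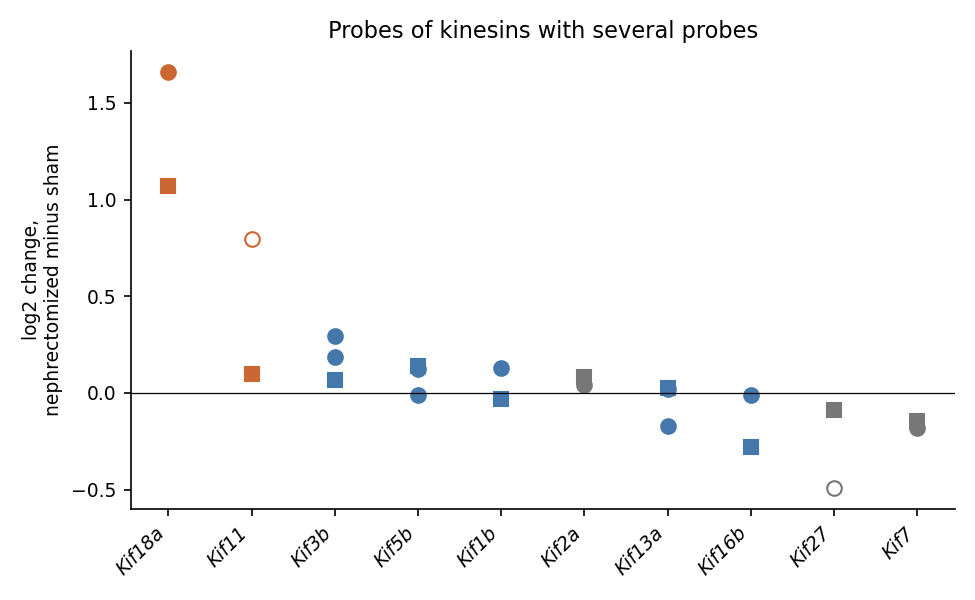
Log2 difference, nephrectomized minus sham, of each of the 23 probes of the 10 kinesins with several probes; squares are the probes used for the gene, circles the others, open symbols are probes well above background on fewer than 4 arrays, and colours mark mitotic (orange), transport (blue) and other (grey) kinesins. Only the probes of Kif18a and the dim probe of Kif11 lie above 0.5.

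Among the transport kinesins, the conventional motors and the vesicle motors stayed within narrow limits. Kif1c, which moves vesicles towards microtubule plus ends, read 47.9, 50.6, 43.3 and 47.5 in sham arrays and 53.1, 59.7, 51.7 and 48.7 after nephrectomy. Nephrectomized replicate 4 lay within the sham range and the other 3 above it. The log2 difference was 0.17 ± 0.08 (SE), with a 95% interval from -0.01 to 0.35 and a limma adjusted p of 0.352.

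Kif5b is the widely expressed heavy chain of conventional kinesin, which carries mitochondria and vesicles. Its relative signals were 21.4, 20.8, 25.3 and 25.2 in sham arrays and 23.1, 25.7, 26.5 and 26.5 in nephrectomized arrays. The sham arrays fell into a lower pair on slide 1 and a higher pair on slide 2, and nephrectomized replicate 1 lay between those pairs. The log2 difference was 0.14 (95% interval -0.06 to 0.34, limma adjusted p = 0.478), and was 0.21 on slide 1 and 0.07 on slide 2. Both other Kif5b probes gave 0.12 and -0.01. The other heavy chains, Kif5a and Kif5c, are known mainly from neurons: Kif5a was not well above background on any array, and Kif5c was so on 1 nephrectomized array only.

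Kif3a and Kif3b form the kinesin-2 motor that carries cargo up the cilium. Kif3b read 7.03, 7.93, 7.08 and 8.40 in sham arrays and 8.31, 8.24, 7.43 and 7.87 after nephrectomy, and the groups overlapped, with the highest value in a sham array. Its log2 difference was 0.07 (95% interval -0.11 to 0.24, limma adjusted p = 0.719), and its other probes gave 0.18 and 0.30. Kif3a had separate groups, -0.377 to -0.271 on the log2 scale in sham arrays and -0.268 to -0.167 after nephrectomy, but the gap was slight, and the log2 difference was 0.10 with a limma adjusted p of 0.432. Kif3c, the alternative partner of Kif3a, had a log2 difference of 0.01, Kif1b, a carrier of mitochondria and vesicles, -0.03, and Kif13a, a motor of recycling endosomes, 0.03.

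Kif16b was the transport kinesin with the largest difference, and it was lower. This motor binds a phosphoinositide on early endosomes and moves them outwards, and its relative signals were 2.40, 2.58, 2.70 and 2.25 in sham arrays and 2.10, 2.12, 2.02 and 1.92 after nephrectomy. Every nephrectomized array was below every sham array. The log2 difference was -0.28 ± 0.07 (SE; 95% interval -0.45 to -0.12), with an unadjusted p of 0.00420 and a limma adjusted p of 0.110, so it did not pass. It was -0.24 on slide 1 and -0.32 on slide 2. The other Kif16b probe, well above background on all 8 arrays, had a log2 difference of -0.01 (adjusted p = 0.969) and overlapping groups, so the lower signal was seen with 1 of the gene's probes. Across the 8 transport kinesins, 2 had groups that did not overlap, Kif3a and Kif16b, against 11% of all features in either direction.

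**Figure D5:**
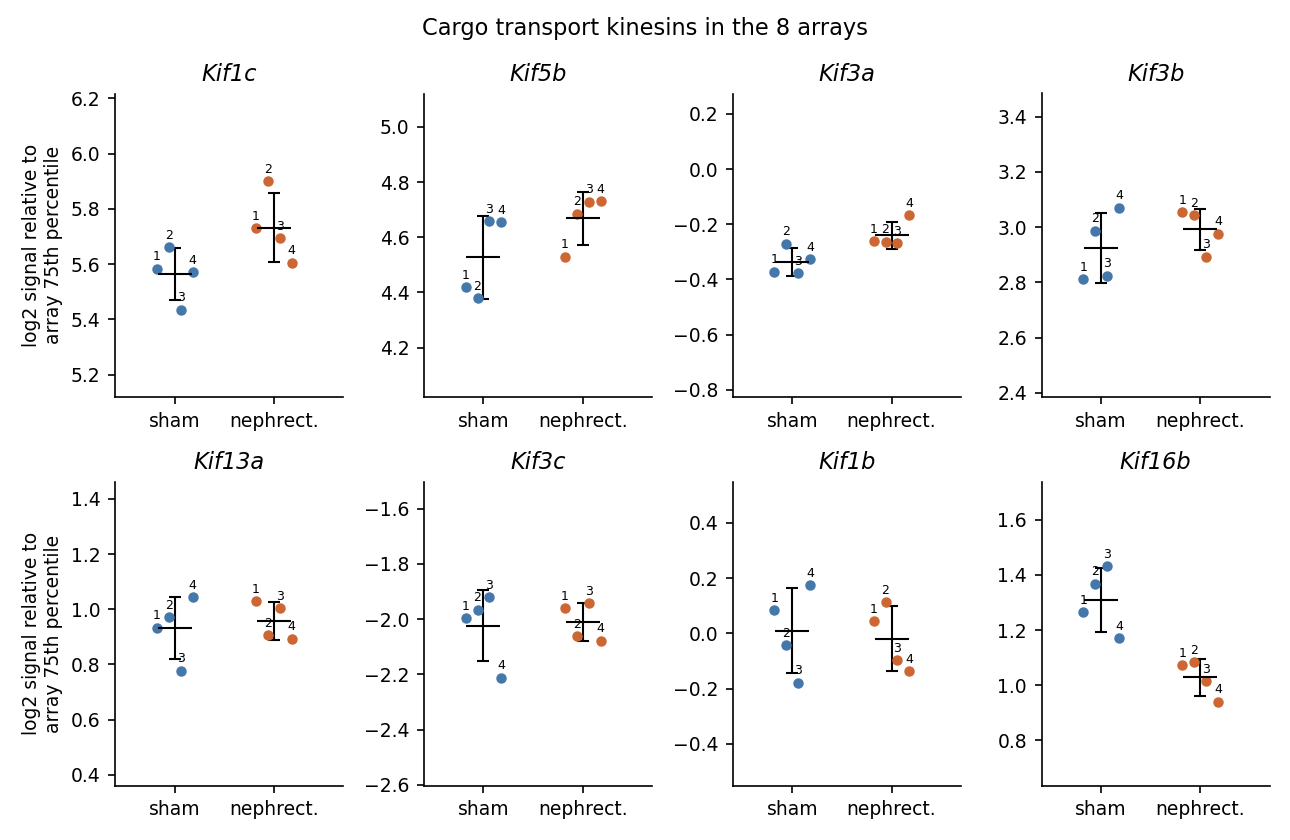
Log2 signal relative to the 75th percentile of the same array for the 8 transport kinesins tested, 1 point an array with its replicate number, and the mean ± SD of each group (n = 4); each gene has its own vertical axis. Apart from Kif3a and Kif16b the groups overlap, and all 8 log2 differences lie between -0.28 and 0.17.

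Of the 5 other kinesins tested, 0 passed the threshold by limma and 0 had an unadjusted p under 0.05, with a median log2 difference of -0.01 and a range from -0.15 to 0.17. Kif12, a kinesin made in the kidney and tied to cystic kidney disease in mice, read 46.0, 40.3, 38.6 and 37.7 in sham arrays and 43.2, 41.6, 37.7 and 39.0 after nephrectomy, with overlapping groups and a limma adjusted p of 0.972. Kif7, which controls Hedgehog signalling at the tip of the cilium, read 0.636, 0.632, 0.686 and 0.672 in sham arrays and 0.572, 0.630, 0.621 and 0.553 after nephrectomy. Its nephrectomized arrays all lay below the sham arrays, replicate 2 only just, and the log2 difference was -0.15 (95% interval -0.29 to 0.0023, limma adjusted p = 0.322). The other Kif7 probe also had separate groups and a log2 difference of -0.18. Kif2a, a microtubule depolymeriser close to Kif2c that is also made in cells that do not divide, differed by 0.08 with separate groups (limma adjusted p = 0.502). It was placed here and not beside Kif2b and Kif2c, so the mitotic counts and median above leave it out and depend on that placing. Kif27, a relative of Kif7, differed by -0.09, and Kif26a, an atypical kinesin without motor activity, by 0.17. Kif26b was not well above background on any array.

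A few kinesins have symbols outside the rule. Kifc1, a mitotic minus-end motor that focuses spindle poles, had separate groups and a log2 difference of 0.59 ± 0.13 (SE) with a limma adjusted p of 0.0829. Kifc2 and Kifc3, which are not mitotic motors, had 0.15 and 0.06. Of these 3, 0 passed the threshold and 1 had an unadjusted p under 0.05, against 3457 of all 21831 features. Cenpe, the kinetochore kinesin, could not be named to a probe and was not analysed here, as were Kif4a, Kif14 and Kif18b among the mitotic kinesins and Kif1a, Kif13b, Kif17, Kif21a and Kif21b among the transport kinesins.

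Ect2, Spag5 and Cdk1 rose among the spindle partners of the mitotic kinesins. Of 20 spindle binding partners and regulators named to a probe, 16 were tested, while Aurkb, Hmmr, Tacc3 and Cit were too dim. Of the 16 tested, 3 rose past the limma threshold, against 0.696% of all features called higher. A positive difference was seen in 15, and 13 had an unadjusted p under 0.05, against 3457 of all 21831 features. The median log2 difference was 1.41. Ect2, which centralspindlin recruits to start the cleavage furrow, rose by 2.29 on the log2 scale (adjusted p = 0.0383), with its 4 nephrectomized arrays above every sham array. Spag5, a spindle protein, rose by 1.99 (adjusted p = 0.0399), and Cdk1, the kinase of mitotic entry, by 2.30 (adjusted p = 0.0439), both again in 4 of 4 arrays. As for Kif22, each of these calls was made without nephrectomized replicate 1 (adjusted p = 0.00947 for each) and was lost without any 1 of the other arrays (0.0595 to 0.124). Direct partners of single kinesins were not called by limma. Prc1, the midzone crosslinker, had a log2 difference of 2.52 (adjusted p = 0.136). Its probe was well above background on 1 sham and 3 nephrectomized arrays. Tpx2, which loads Kif15 and Kif11 on the spindle, had 1.97 (adjusted p = 0.0602). The Tpx2 probe was well above background on 1 sham and 4 nephrectomized arrays. Racgap1, the other subunit of centralspindlin, had 0.77 (adjusted p = 0.248). The sham means of Prc1 and Tpx2 thus rest mostly on arrays where the probe was dim. Kntc1 was well above background on 2 sham and 4 nephrectomized arrays. Prc1, Tpx2 and Kntc1 passed the filter mainly through nephrectomized arrays, and they count in the 15, the 13 and the median above. Those figures therefore depend in part on the filter. With normexp the log2 differences were 1.19 for Prc1, 0.95 for Tpx2 and 0.62 for Racgap1.

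The partners of transport kinesins stayed near 0. Of 17 light chains and cargo adaptors tested, 0 passed the limma threshold, with a median log2 difference of 0.03. An unadjusted p under 0.05 was found for 2 of them, against 3457 of all 21831 features. The light chain Klc1 differed by 0.07, and Plekhm2, which couples kinesin to lysosomes, by -0.31 (adjusted p = 0.760), the widest difference of the list, which was 0.11 without sham replicate 3. Kifap3, the accessory subunit of kinesin-2, was not analysed here. Dynein and dynactin, which move cargo the opposite way, gave 0 called of 23 tested, 3 with an unadjusted p under 0.05 and a median of 0.05, and the widest difference was that of the light chain Dynlt3, 0.27 (adjusted p = 0.0903). Intraflagellar transport genes, cargo of kinesin-2, gave 0 called of 15 tested, 2 with an unadjusted p under 0.05 and a median of -0.01, with Ift80 the widest at 0.23 (adjusted p = 0.105).

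Markers of dividing cells and of cell types were read beside the kinesins. All 4 proliferation markers tested had separate groups (nephrectomized higher, against 6.97% of all features). All 4 had an unadjusted p under 0.05, against 3457 of all 21831 features, with a median log2 difference of 1.80. Of these markers 0 passed the limma threshold, and Ccnb1, cyclin B1, was the widest at 2.42 (adjusted p = 0.0533). Their summed relative signal ran from 4.48 to 4.95 in sham arrays and from 5.87 to 9.70 after nephrectomy. Pcna was the brightest of them in sham arrays, with a log2 mean of 2.05, and weighed most in the sham sum. Its log2 difference was 0.30. Of 7 leukocyte markers tested 3 fell, against 0.275% of all features called lower: S100a9 by 1.40, S100a8 by 1.69 and Adgre1 by 0.51 on the log2 scale (adjusted p = 0.0188, 0.0368 and 0.0489). All 7 had a negative difference, against 10408 of all 21831 features, but it was only -0.11 for Cd68, -0.05 for Cd3d and -0.04 for Lyz2. Ptprc had -0.33 (adjusted p = 0.242). Cd3e, Cd79b and Itgam were well above background on fewer than 4 arrays. The list's sum was 23.6 to 26.3 in sham arrays and 21.4 to 25.2 after nephrectomy, and Lyz2, the brightest member, weighed most in it. With 1 array left out, S100a8 was called without nephrectomized replicate 1 alone (0.0121, against 0.0705 to 0.109), S100a9 without sham replicate 4 or nephrectomized replicate 1 or 2 (0.0165 to 0.0495, against 0.0515 to 0.0700), and Adgre1 lost its call whichever array was left out (0.0700 to 0.136). None of the 8 nephron, 5 podocyte, 5 endothelial, 4 stromal, 5 neuronal, 2 motile cilia and 3 erythroid markers tested was called by limma, and 3 of them had an unadjusted p under 0.05. The widest neuronal difference was that of Nefm, 0.82 (adjusted p = 0.144), while Syt1, Stmn2, Nefl and Gap43 were well above background on fewer than 4 arrays, and the sum of the neuronal list was 0.628 to 1.03 in sham arrays and 0.863 to 1.15 after nephrectomy. The part of any of these cells in the kinesin values was not tested.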

How the data were processed

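Per the file headers, Agilent Feature Extraction 10.5.1.1 produced the scanner files. Their deposited processed signals are intensity values on a linear scale, background-subtracted and not normalized between arrays. The authors' deposited series table holds log2 values, centred per probe, and was an alternative. Here log2 values were scaled to the 75th percentile of each array, and 1639 control spots were left out. Probes were named through RefSeq accessions, and a gene took its brightest probe of those well above background on at least 4 of 8 arrays. The comparison used limma 3.58.1 (R 4.3.3) on 21831 features, with Benjamini-Hochberg adjustment, a threshold of 0.05 and no covariates. The fit was tested on simulated data.

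The gene lists, and the kinesins themselves, were chosen with earlier results of these data known. Every kinesin is named. Values per array are given for every mitotic kinesin tested, for the 3 brightest and 2 most different transport kinesins and for the 2 brightest others. Other lists are named by their called genes, at most 3, or by the widest difference, with 6 partners named in any case.

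Same-number correlations of deviations ran from -0.205 to 0.142, which neither shows nor excludes that replicate numbers pair the samples. Normexp used the median spot signal with an offset of 50. Promoter windows are from RefSeq on GRCr8. Probe coordinates and proteins were not used here, and 4 kinesin genes had no window.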

Additional observations from a re-analysis of the deposited data

Results flagged for a closer look

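In 6 of 72 groups of 4 arrays examined, 1 array stood far from the other 3, and chance alone does this in about 1 of 20 groups. The figure given for each is its gap to the nearest array as a share of the group's whole range. Kif18a was highest in sham replicate 3, at -3.41 on the log2 scale against -3.76 to -3.72 (share 0.892), and without that array its log2 difference was 1.15. Kif3a was highest in nephrectomized replicate 4, at -0.17 against -0.27 to -0.26 (share 0.943). Kifc1 was highest in sham replicate 4, at 1.76 against 1.49 to 1.53 (share 0.864). Plekhm2 was highest in sham replicate 3, at -1.80 against -3.61 to -3.36 (share 0.864). Ect2 was lowest in sham replicate 1, at -2.79 against -2.38 to -2.31 (share 0.854). Adgre1 was lowest in sham replicate 1, at -0.81 against -0.66 to -0.63 (share 0.868).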

How the results depend on the processing

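Of 21 alternatives, Kif18a was called in 17 and Kif22 in 9, and no transport or other kinesin was called in any. The count of mitotic kinesins called, 2 of 7, was the same with quantile normalization, median scaling, every probe tested and the deposited series table. It was 4 with normexp, 5 with probes required on all arrays, 5 with trended and robust variances, 1 of 9 with no filter on dim probes, 1 with the mean over a gene's probes, 1 with the slide as a block, 0 on slide 1 alone and 0 on slide 2 alone, and 1 to 5 with 1 array left out. With the replicate block it was 0 (adjusted p = 0.0820 for Kif18a and 0.127 for Kif22), while that block called 6 features higher and 5 lower in all, and 3 of 8 arrays correlated best with their own number. Over all features the calls were 152 higher and 60 lower, 395 and 133 with trended and robust variances, 17 and 4 with no filter, 269 and 95 with probes required on all arrays, 69 and 34 with the slide as a block, and 0 on each slide alone.

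Directions reversed only among values that were not called. With normexp Kif1b was 0.028, Kif27 0.10, Kif3b -0.023 and Plekhm2 0.022. With the mean over probes Kif13a was -0.040, Kif1b 0.049 and Klc1 -0.016. On slide 1 alone Kif11 was -0.10, Kif1b 0.058, Kif27 0.012, Kif3c -0.030 and Plekhm2 0.084. On slide 2 alone Kif12 was 0.0053, Kif26a -0.089 and Kif3b -0.013. With 1 array left out, the values ran from -0.0031 to 0.18 for Kif11, -0.043 to 0.052 for Kif12, -0.024 to 0.064 for Kif13a, -0.092 to 0.026 for Kif1b, -0.16 to 0.015 for Kif27, -0.050 to 0.048 for Kif3c and -0.50 to 0.11 for Plekhm2. The cause of these shifts was not tested. With 4 arrays a group, dim probes such as those of Kif2c and the second probes of Kif11 and Kif18a limit what can be said of those genes.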
